A study of Homo sapiens with 6 samples.

Results

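The human mitochondrial genome carries 37 genes, and all 37 were rows of the gene count table, chosen because the table places them on chromosome MT, out of 58336 genes in all. They comprise 13 protein-coding genes, 2 rRNA genes and 22 tRNA genes. Their levels were compared between A2780 cells, a human ovarian cancer line, exposed to DMSO vehicle (0 µM TH588) and A2780 cells exposed to 6 µM TH588, a first-generation inhibitor of the Nudix hydrolase MTH1, both for 48 h. MTH1 hydrolyses oxidized nucleotides such as 8-oxo-dGTP before they can be built into DNA, and the mitochondrial genome is one of the DNAs made from those nucleotides. Each treatment was represented by 3 independent experiments, called A, B and C, giving 6 libraries of 1 cell line. No genetic change separates the groups, and no other cell line was analysed here.

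Mitochondrial DNA is transcribed from both strands as long RNAs that run across many genes. The rRNAs and most mRNAs lie on one transcript, MT-ND6 and a minority of the tRNAs lie on the other, and the tRNAs between the genes are cut out to release the mature RNAs. The mRNAs encode core subunits of respiratory complexes I, III and IV and of the ATP synthase (complex V), while every factor that copies, transcribes, processes and translates this genome is imported from the cytosol as the product of a nuclear gene.

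The libraries held 28537837 to 99074175 counts, and TH588 A was the shallowest. One nuclear small nucleolar RNA gene, SNORD3A, took 7.68% to 10.6% of the counts in the DMSO libraries, 21.9% in TH588 A, and 11.2% and 12.95% in TH588 B and C. TH588 A thus stands apart, and values without it are given beside the results it moves most. Of 10 ovarian epithelial markers, 2 (KRT18 and EPCAM) passed the filter on low counts, the list summed to 3.89 to 4.63 CPM in DMSO and 10.9 to 12.2 CPM in TH588, and PAX8 had 0 counts in all DMSO libraries. All 6 fibroblast markers passed, summing to 1590 to 1920 CPM in DMSO and 1880 to 2620 CPM in TH588, nearly all of it COL3A1. The 6 leukocyte markers stayed at 0.766 to 1.36 CPM in DMSO and 0.946 to 1.27 CPM in TH588, with CD3E at 0. CPM stands for counts per 1e6 counts of the library total after TMM scaling. The part of these marker differences in the results below was not tested.

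Several mitochondrial genes share bases with a neighbour or with the nuclear genome, so that some reads cannot be placed with certainty. The following sequences, taken from GRCh38, show examples of both. The first 2 run along the plus strand across the overlaps of MT-ATP8 with MT-ATP6 (MT:8515-8584) and of MT-ND4L with MT-ND4 (MT:10748-10778), with the bases that belong to both genes in capitals. The shared stretches are 46 and 7 bases long.
MT-ATP8 and MT-ATP6 overlap: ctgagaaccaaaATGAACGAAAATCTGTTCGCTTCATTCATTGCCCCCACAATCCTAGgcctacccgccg
MT-ND4L and MT-ND4 overlap: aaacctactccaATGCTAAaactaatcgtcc

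A nuclear block on chromosome 1 (chr1:629084-634924) matches the mitochondrial genome from position 3914 to 9755 at 98.6% identity, with 82 differing bases outside gaps. It holds the whole of MT-ND2, MT-CO1, MT-CO2, MT-ATP8 and MT-ATP6, and parts of MT-ND1 and MT-CO3. A stretch of 60 bases inside MT-CO1 (MT:6207-6266, plus strand) and its counterpart (chr1:631377-631436, plus strand) are shown, with the 3 differing bases in capitals. MT-CO1 was chosen because it is the mRNA that moved apart from the others. The stretch was picked as a 60-base window of MT-CO1 with the most differences, so a read is more easily placed there than elsewhere in the gene. Over all 1542 bases of MT-CO1, 20 differ.
MT-CO1 window: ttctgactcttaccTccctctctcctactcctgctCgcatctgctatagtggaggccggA
chromosome 1 counterpart: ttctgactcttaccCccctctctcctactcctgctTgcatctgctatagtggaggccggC

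Taking all windows of 50 bases, 50.6% of those in MT-CO1 had an exact copy somewhere in the nuclear genome. The share was 46.7% in MT-ATP6, 43.6% in MT-ND2 and 43.65% in MT-RNR1, against 4.76% in MT-ND5, 3.54% in MT-ND4, 1.65% in MT-CYB and 0% in MT-ND3 and MT-ND4L. MT-ND6 had 19.96% and MT-RNR2 15.7%. With windows of 100 bases the share fell to 27.9% in MT-CO1 and 26.1% in MT-ND2, and to 0% in MT-RNR2 and in every mRNA from MT-ND3 to MT-CYB. The counts seen at the nuclear copies themselves were small: of 404 such pseudogenes in the table, 15 had any count and all together held 772 counts over the 6 libraries. The most were at MTND2P28 and MTATP6P1, both on chromosome 1 and named after their values were seen, with means of 55.7 and 52.5 counts per library. MTCO1P12, the counterpart of MT-CO1, likewise named after its values were seen, held 0, 0 and 3 counts in the DMSO libraries and 0, 3 and 1 counts in the TH588 libraries. How the read aligner handled reads that fit both genomes is not given in the sources used here.

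The mitochondrial genes together took 0.446%, 0.562% and 0.441% of all counts in the DMSO libraries and 0.704%, 0.494% and 0.576% in the TH588 libraries (A, B and C in that order, here and below). The ranges overlapped, since TH588 B lay below DMSO B. The log2 ratio of TH588 over DMSO was 0.29, and 0.15 without TH588 A. Nearly all of these counts came from the 2 rRNAs, at 0.437%, 0.551% and 0.433% of the library in DMSO and 0.695%, 0.488% and 0.568% in TH588. The 13 mRNAs took 0.00945%, 0.0111% and 0.00789% in DMSO and 0.00905%, 0.00637% and 0.00866% in TH588, with only TH588 B outside the DMSO range. In counts, the mRNAs held 7859, 9565 and 7742 in DMSO and 2582, 6310 and 6720 in TH588. In bulk RNA, fewer cells of a kind, fewer mitochondria per cell and less RNA per mitochondrion cannot be told apart.

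**Figure D1:**
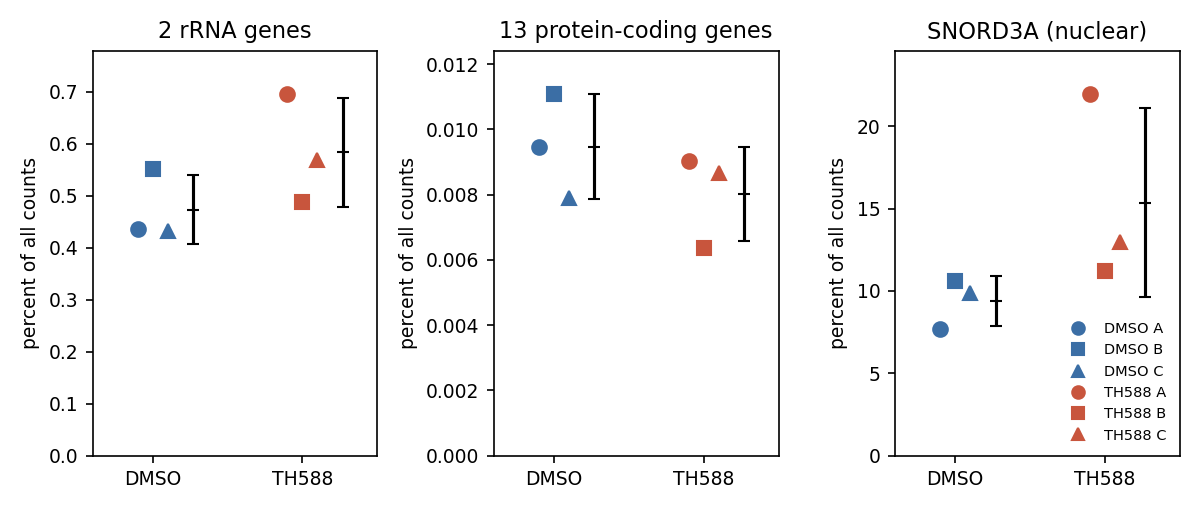
Percent of each library's counts (y axes, from 0) in the 2 rRNA genes, the 13 mitochondrial protein-coding genes and the nuclear gene SNORD3A, with 1 point per library and bars at the mean ± SD (n = 3). The rRNA and mRNA points of the treatments overlap, and TH588 A is highest for both the rRNAs (0.695%) and SNORD3A (21.9%).

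The balance between the classes did part the libraries. The mRNAs made up 2.12%, 1.97% and 1.79% of the mitochondrial counts in DMSO and 1.28%, 1.29% and 1.502% in TH588, so every TH588 library lay below every DMSO library. The rRNA share rose in step from 97.9%, 98.0% and 98.2% to 98.7%, 98.7% and 98.5%. Per kb of gene, MT-RNR2 stood at 356, 377 and 418 times the median mRNA in DMSO and at 703, 659 and 603 times in TH588. MT-RNR1 stood at 20.9, 20.01 and 19.9 times the median mRNA in DMSO and 27.2, 31.7 and 30.4 times in TH588. Both rRNAs were thus further above the mRNAs in all 3 TH588 libraries, TH588 A among them. This was not particular to the rRNAs. Set against the total of the mRNAs instead of their median, 31.2% of all genes tested lay higher in TH588 without overlap and 4.24% lower. With 3 libraries against 3, an exact permutation test cannot give a p under 0.1, and these shares and ratios were chosen after their values were seen, so they stand as descriptions.

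The ribosomal RNAs themselves did not pass the test. MT-RNR1 (MT:648-1601, plus strand), the 12S RNA of the small mitoribosomal subunit, had 153, 181.3 and 128.4 CPM in DMSO and 171.6, 127 and 158 CPM in TH588, for means of 154 ± 26.5 and 152 ± 22.9 (SD, n = 3). Its log2 fold change, TH588 over DMSO, was -0.02 ± 0.13 (SE), with an edgeR adjusted p of 0.912. MT-RNR2 (MT:1671-3229, plus strand), the 16S RNA of the large subunit, had 4263, 5578 and 4405 CPM in DMSO and 7239, 4315 and 5122 CPM in TH588. TH588 A alone lay above all DMSO libraries, and TH588 B and C lay within their range. The log2 fold change of MT-RNR2 was 0.23 ± 0.16 (adjusted p = 0.277), without TH588 A it was 0.00, and without TH588 B it was 0.38 and past the threshold (adjusted p = 0.0493). Counts of MT-RNR2 over MT-RNR1 were 27.9, 30.8 and 34.3 in DMSO and 42.2, 34.0 and 32.4 in TH588, which overlap. Thus 0 of 2 rRNAs were called, whether by edgeR at an unadjusted p under 0.05, by DESeq2 or by limma-voom.

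Of the 13 mRNAs, 4 were lower in TH588 (30.8%) and 0 were higher at an adjusted p under 0.05 by edgeR's quasi-likelihood test. Over all 15844 genes tested 49.6% were called, 25.3% lower and 24.2% higher, so the share of mRNAs called lower was near that of genes at large. At an unadjusted p under 0.05, and with DESeq2, the count was again 4 lower and 0 higher, and with limma-voom it was 7 lower and 0 higher, where DESeq2 and limma-voom called 25.4% and 26.3% of all genes tested lower. The log2 fold changes leaned more than the calls did: 12 of 13 were below 0, from -0.86 to 0.225, and their median was -0.44 beside a median of 0.02 over all genes tested. Only MT-ND5 and MT-ND6 had every TH588 library below every DMSO library, where 29.0% of all genes tested did and 57.7% were free of overlap in either direction. The genes share transcripts and libraries, so 12 of 13 in one direction is not 12 separate observations. The count moved with single libraries: without TH588 A 7 of 13 were lower (24.7% of all genes tested were), with a median of -0.61, while without TH588 B 2 were lower, with a median of -0.19.

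**Figure D2:**
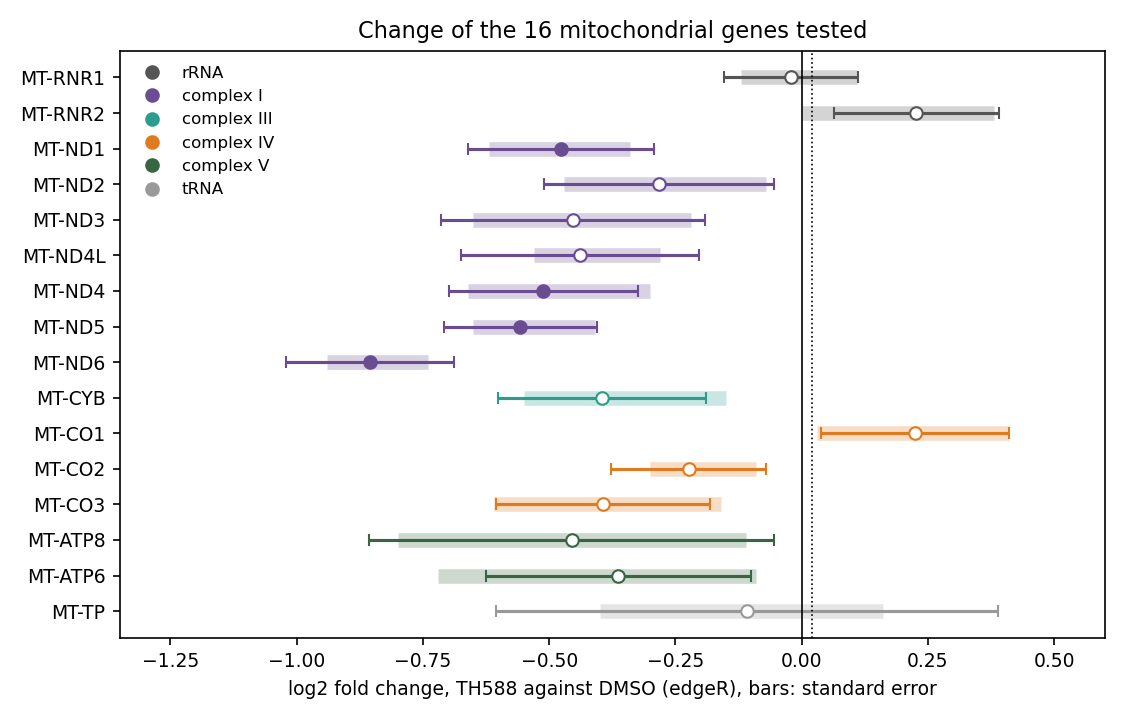
Log2 fold change (x axis, TH588 over DMSO, edgeR) of the 16 mitochondrial genes tested, with bars for the standard error, shaded bands for the range over 15 alternative analyses, filled points for an adjusted p under 0.05 and a dotted line at the median of all genes (0.02). The 4 filled points are complex I genes, MT-ND6 is the lowest at -0.86, and MT-CO1 and MT-RNR2 lie to the right of 0.

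Complex I, the NADH dehydrogenase, receives 7 subunits from mitochondrial DNA, and all 4 mRNAs called lower encode one of them. The lean below 0 was not confined to complex I. Its log2 fold changes ran from -0.86 to -0.28, and those of the other complexes from -0.46 (MT-ATP8) to 0.225 (MT-CO1). Summed over its mitochondrial mRNAs, complex I had 52.5, 64.0 and 44.8 CPM in DMSO and 44.9, 29.2 and 39.3 CPM in TH588, or 53.8 ± 9.65 against 37.8 ± 7.97 (SD, n = 3). TH588 A was marginally above DMSO C and the other TH588 libraries were below all DMSO libraries.

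MT-ND6 (MT:14149-14673, minus strand), the only mRNA of its strand, fell the most. It had 4.55, 5.29 and 4.01 CPM in DMSO and 2.62, 2.21 and 2.86 CPM in TH588, resting on 374, 437 and 376 counts and on 70, 240 and 239 counts. All 3 TH588 libraries lay well below the lowest DMSO library. The log2 fold change was -0.86 ± 0.17 (SE, adjusted p = 0.000999 by edgeR), a level 0.553 times that of DMSO. It was called lower in all 15 alternative analyses, between -0.94 and -0.74. Because the library kit does not keep the strand, reads of MT-ND6 and of any RNA from the opposite strand over the same bases cannot be told apart.

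MT-ND5 (MT:12337-14148, plus strand), which overlaps no other annotated mitochondrial gene, had 17.1, 21.6 and 15.2 CPM in DMSO and 14.2, 10.2 and 12.5 CPM in TH588. Here too no library of one treatment reached the range of the other, though TH588 A and DMSO C differed little. Its mean fell from 17.95 ± 3.27 to 12.3 ± 2.03 CPM, a log2 fold change of -0.56 ± 0.15 (adjusted p = 0.0091 by edgeR), and it was also called in all 15 alternatives, between -0.65 and -0.41.

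MT-ND4 (MT:10760-12137) and MT-ND1 (MT:3307-4262) passed the test with overlapping groups. MT-ND4 had 16.2, 19.7 and 14.3 CPM in DMSO and 14.5, 8.25 and 12.8 CPM in TH588, and TH588 A exceeded DMSO C. Its log2 fold change was -0.51 ± 0.19 (adjusted p = 0.0378), called in 10 of 15 alternatives. MT-ND1 had 7.35, 8.38 and 5.42 CPM in DMSO and 6.31, 4.25 and 4.89 CPM in TH588, again with TH588 A above DMSO C. Its log2 fold change was -0.48 ± 0.18 (adjusted p = 0.0484), called in 8 of 15 alternatives. Both calls therefore rest on a narrow margin. Leaving out DMSO A, DMSO B, TH588 B or TH588 C ended each of them. For MT-ND4 the log2 fold change was then -0.52, -0.38, -0.30 and -0.57, and for MT-ND1 -0.43, -0.34, -0.35 and -0.43, so for MT-ND4 it was no smaller without DMSO A or TH588 C than with all libraries. An analysis with the replicate letter as a block ended that of MT-ND1 (adjusted p = 0.056).

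The remaining complex I mRNAs did not pass. MT-ND2 had a log2 fold change of -0.28 ± 0.23 (adjusted p = 0.331; -0.47 and 0.104 without TH588 A), MT-ND3 of -0.45 ± 0.26 (adjusted p = 0.174) and MT-ND4L of -0.44 ± 0.24 (adjusted p = 0.142). MT-ND3 and MT-ND4L had 35 to 188 counts per library.

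Complex III takes a single subunit from mitochondrial DNA, cytochrome b. MT-CYB (MT:14747-15887) had 5.73, 7.32 and 6.20 CPM in DMSO and 6.16, 3.25 and 5.50 CPM in TH588, with a log2 fold change of -0.40 ± 0.21 (adjusted p = 0.132). TH588 A lay within the DMSO range and the other TH588 libraries below it. Without TH588 A, MT-CYB was called lower, as were MT-CO3 and MT-ATP6 of the complexes below.

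Complex IV, cytochrome c oxidase, has its catalytic core of 3 mitochondrial subunits, and none of their mRNAs passed the test. MT-CO1 (MT:5904-7445), the subunit that carries the oxygen-reducing centre, had 13.5, 14.9 and 10.5 CPM in DMSO and 19.6, 11.2 and 15.1 CPM in TH588. Its log2 fold change was 0.225 ± 0.19 (adjusted p = 0.343). It was the one mRNA above 0, there and in all 15 alternatives (0.03 to 0.41), and the lowest of these values was that without TH588 A (0.033). MT-CO2 (MT:7586-8269), which receives electrons from cytochrome c, had 8.67, 10.2 and 7.59 CPM in DMSO and 8.14, 6.20 and 8.45 CPM in TH588, a log2 fold change of -0.22 ± 0.15 (adjusted p = 0.25). MT-CO3 (MT:9207-9990) had 9.50, 12.0 and 8.43 CPM in DMSO and 10.2, 5.17 and 7.80 CPM in TH588, a log2 fold change of -0.39 ± 0.21 (adjusted p = 0.145), and -0.61 without TH588 A (adjusted p = 0.0201). The groups overlapped for each of these genes. Summed, complex IV had 31.8 ± 5.32 CPM in DMSO and 30.6 ± 7.73 CPM in TH588.

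The ATP synthase has MT-ATP6 (MT:8527-9207), part of its proton channel, and MT-ATP8 (MT:8366-8572), a small membrane subunit, on the overlapping sequence printed above. MT-ATP6 had 5.15, 6.47 and 4.60 CPM in DMSO and 6.61, 2.67 and 3.85 CPM in TH588, so TH588 A was the highest and TH588 B the lowest of all 6 libraries. Its log2 fold change was -0.36 ± 0.26 (adjusted p = 0.277), and -0.72 without TH588 A (adjusted p = 0.00968). MT-ATP8 had 23 to 83 counts per library, shares 22.2% of its bases with MT-ATP6 and had a log2 fold change of -0.46 ± 0.40 (adjusted p = 0.374), and -0.80 without TH588 A (adjusted p = 0.122).

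Taking each mRNA as a share of the 13 mRNAs removes what moves all of them together in a library. MT-CO1 made up 14.1%, 12.9% and 12.7% of the mitochondrial mRNA counts in DMSO and 20.3%, 19.3% and 18.8% in TH588, all 3 TH588 libraries well above the DMSO range. MT-ND6 fell from 4.76%, 4.57% and 4.86% to 2.71%, 3.80% and 3.56%. MT-ND4 fell from 17.0%, 17.0% and 17.3% to 15.03%, 14.2% and 15.95%, and MT-ND5 from 17.9%, 18.6% and 18.4% to 14.8%, 17.6% and 15.5%. The other 9 overlapped. Shares sum to 100, so a gain by MT-CO1 lowers the rest. Of all genes tested, set against the same mRNA total, 31.2% lay higher and 4.24% lower without overlap.

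**Figure D3:**
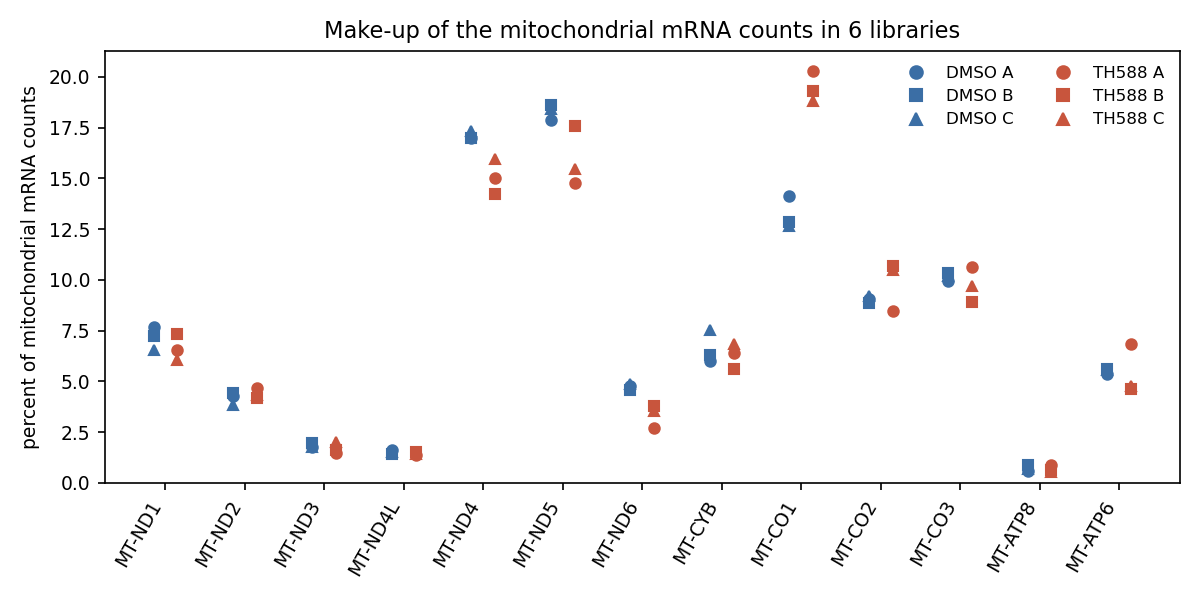
Share of the mitochondrial mRNA counts (y axis, percent, from 0) for each of the 13 protein-coding genes, grouped by complex, with 1 point per library. MT-CO1 is 12.7% to 14.1% in DMSO and 18.8% to 20.3% in TH588, and MT-ND4, MT-ND5 and MT-ND6 lie lower in TH588 without overlap.

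Ratios of counts within a library, which no scaling of the library can change, gave the same separation. Counts of MT-CO1 over MT-ND5 were 0.790, 0.691 and 0.688 in DMSO and 1.38, 1.10 and 1.22 in TH588. Against MT-CO2, a gene that lies in the same chromosome 1 block, MT-CO1 stood at 1.56, 1.46 and 1.38 in DMSO and 2.40, 1.80 and 1.79 in TH588. Against MT-CO3 it stood at 1.42, 1.25 and 1.24 in DMSO and 1.91, 2.17 and 1.94 in TH588. These genes are not matched to MT-CO1 in nuclear copies. An exact copy existed for 29.0% of the 50-base windows of MT-CO2 and 30.9% of those of MT-CO3, against 50.6% in MT-CO1. With 100-base windows the shares were 2.39%, 4.67% and 27.9%. The part of nuclear copies in these ratios was not tested. MT-CO1 therefore gained on its complex IV partners in every TH588 library as it did on complex I. MT-ND6 over MT-ND5 was 0.267, 0.245 and 0.264 in DMSO and 0.184, 0.216 and 0.230 in TH588, and MT-ND6 per kb over the sum of the other 12 mRNAs was 0.0945, 0.0895 and 0.0963 in DMSO and 0.0526, 0.0757 and 0.0699 in TH588. MT-RNR2 over MT-ND5 rose from 250, 259 and 290 to 509, 423 and 411. MT-RNR2 over MT-CO1, in contrast, was 316, 374 and 421 in DMSO and 370, 386 and 338 in TH588 (exact permutation p = 0.9, two-sided). Apart from the per-kb ratio of MT-ND6, which was not tested, the separated ratios and shares of single mRNAs had an exact two-sided permutation p of 0.1, the smallest that 3 against 3 allows, and an adjusted value of 0.192 over the 23 compared, so none passes a threshold of 0.05. They were picked with their values in view.

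The mRNAs wholly inside the chromosome 1 block and those outside it can be set side by side. The 5 inside had log2 fold changes from -0.46 to 0.225 (median -0.28) with 0 called lower, and the 6 outside had -0.86 to -0.40 (median -0.48) with 3 called lower. The 2 partly inside, MT-ND1 and MT-CO3, had -0.48 and -0.39 with 1 called lower. Over all genes tested 25.3% were called lower. Those outside are complex I genes except MT-CYB, while MT-ND2 alone of those inside is, so position and complex cannot be told apart. DMSO levels inside and outside were alike, with medians of 7.94 and 7.21 CPM per kb. The part of nuclear copies in this difference was not tested.

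On the per-length scale the order of the genes in DMSO ran from MT-RNR2 (3046 CPM per kb) and MT-RNR1 (161.7) to MT-CO2 (12.9), MT-CO3 (12.7), MT-ND4 (12.2), MT-ND5 (9.91), MT-ND6 (8.80), MT-CO1 (8.40), MT-ATP6 (7.94), MT-ND1 (7.38), MT-CYB (5.62), MT-ND3 (5.19), MT-ND4L (5.01), MT-ND2 (3.95) and MT-ATP8 (3.39). Only the steps from MT-RNR2 to MT-RNR1 and from MT-RNR1 to MT-CO2 exceeded the spread between libraries, and every other neighbour in this order overlapped the next. The mRNAs spanned 3.8-fold from lowest to highest in DMSO and 4.15-fold in TH588. In TH588, MT-CO1 moved from 8th to 4th of the 15 and MT-ND6 from 7th to 10th.

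**Figure D4:**
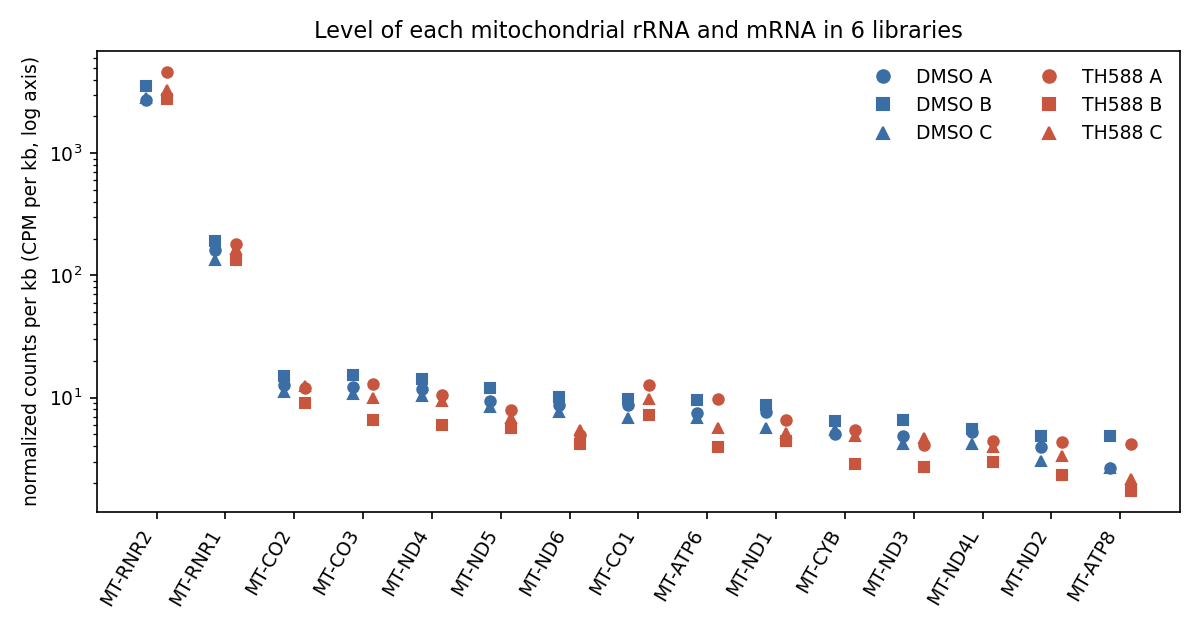
Level of the 2 rRNA and 13 protein-coding genes in CPM per kb (log axis), in the order of their DMSO means, with 1 point per library. The rRNAs stand apart above the mRNAs, at 3046 and 161.7 CPM per kb against at most 12.9 in DMSO, and MT-ND6 is the mRNA whose TH588 points are most clearly below its DMSO points.

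The mitochondrial mRNAs were low beside their nuclear partners. The median of the 13 was 7.94 CPM per kb in DMSO, while the 75 nuclear genes for subunits of complexes I, III, IV and V that passed the filter had a median of 46.8, which is 5.9 times as high, and 60 of the 75 exceeded the highest mitochondrial mRNA. For complex I the medians were 7.38 and 25.3 CPM per kb, and for the ATP synthase 5.67 and 50.2. The library kit selects poly(A) RNA and most mitochondrial mRNAs carry short tails. How reads matching several places were handled is not known. The part of either in the difference was not tested.

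The tRNAs were barely seen. Of 22, 15 had 0 counts in all 6 libraries and 7 held 188 counts between them. MT-TP, the proline tRNA, held 25, 27 and 13 counts in DMSO and 8, 18 and 23 in TH588. MT-TC held 0, 13 and 6 in DMSO and 1, 1 and 1 in TH588, MT-TY held 4, 4 and 5 and then 0, 6 and 2, and MT-TL1 held 3, 5 and 2 and then 4, 3 and 1. MT-TV (7 counts in all), MT-TT (5) and MT-TE (1) were at or near 0. With a floor of 3 counts, counting error alone would allow up to 0.0276 to 0.112 CPM for a tRNA at 0, depending on the library. That floor does not bound the level in the cells, since the library kit selects poly(A) RNA and its capture of tRNAs was not tested. The 15 unseen tRNAs are therefore not shown to be absent.

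Only MT-TP passed the filter, at 0.304, 0.327 and 0.139 CPM in DMSO and 0.299, 0.165 and 0.276 CPM in TH588. The groups overlapped, and the log2 fold change was -0.11 ± 0.50 (SE, adjusted p = 0.876 by edgeR). Thus 0 of 1 tested tRNA was called, also at an unadjusted p under 0.05 and with DESeq2 and limma-voom. By strand, 4 of the 8 minus-strand tRNAs and 3 of the 14 plus-strand tRNAs had a count. MT-TP, MT-TC and MT-TY, all on the minus strand, had the most, but MT-TY held 21 counts in all and the plus-strand MT-TL1 18. Because the library kit does not keep the strand, these counts do not show which strand the RNA came from.

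The sequences of MT-TP (MT:15956-16023, minus strand), MT-TY (MT:5826-5891, minus strand) and MT-TN (MT:5657-5729, minus strand), each printed in its own 5′ to 3′ direction, show a tRNA with no exact nuclear copy over any 50-base window, one with few and one copied throughout.
MT-TP: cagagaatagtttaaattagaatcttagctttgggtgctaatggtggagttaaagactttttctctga
MT-TY: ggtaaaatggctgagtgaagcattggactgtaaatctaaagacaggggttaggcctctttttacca
MT-TN: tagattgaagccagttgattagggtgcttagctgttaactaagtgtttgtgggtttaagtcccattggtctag

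Of the 7 tRNAs copied throughout, MT-TN among them, 1 had a count (MT-TE, with 1). Of the 8 with no copied window, 3 had counts, 137 in all. No tRNA was long enough for a 100-base window.

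The nuclear genes that serve this genome moved as well, and more of them were lower than of genes at large. Over 14 lists, counting each gene once, 138 of 273 tested genes were lower (50.5%, against 25.3% of all genes tested) and 14 were higher (5.13%, against 24.2%). Their median log2 fold change was -0.27. By list, the share lower ran from 8.33% (nuclear subunits of complex IV) to 66.7% (small mitoribosomal subunit), to be read against the same 25.3%. The lists were drawn up with earlier results of these data known.

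Among the genes of mitochondrial transcription, 6 of 10 were lower and 0 higher. TFAM, which packages mitochondrial DNA and opens its promoters, had 88.4, 96.4 and 95.6 CPM in DMSO and 44.3, 55.7 and 59.7 CPM in TH588, without overlap, and its log2 fold change was -0.81 ± 0.11 (SE, adjusted p = 5.03e-05). TFB2M, the initiation factor that melts the promoter, had 38.1, 45.3 and 36.3 CPM and then 23.6, 25.9 and 27.1 CPM, a log2 fold change of -0.64 ± 0.10 (adjusted p = 0.000228). POLRMT, the RNA polymerase itself, was 39.9 ± 5.70 CPM in DMSO and 37.1 ± 6.14 CPM in TH588 with a log2 fold change of -0.10 ± 0.13 (adjusted p = 0.534), and TEFM, the elongation factor, was 4.78 ± 0.39 and 5.32 ± 0.63 CPM (0.14 ± 0.14, adjusted p = 0.425). Both initiation factors therefore fell while polymerase and elongation factor did not pass the test. MTERF3, a negative regulator of mitochondrial transcription, also fell, by 1.16 on the log2 scale. The other 3 that were lower were MTERF1 (-0.30), MTERF4 (-0.29) and MRPL12 (-0.96). MTERF4, whose groups overlapped, and MRPL12 share 51.0% and 68.2% of their exon bases with another gene.

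LRPPRC and SLIRP form the complex that protects mitochondrial mRNAs from decay and keeps them polyadenylated. LRPPRC had 1946, 1865 and 1998 CPM in DMSO and 1290, 1241 and 1236 CPM in TH588 (log2 fold change -0.63 ± 0.08, adjusted p = 2.65e-05). SLIRP had 290.4, 358.5 and 332.8 CPM in DMSO and 164.3, 156.2 and 189.2 CPM in TH588 (log2 fold change -0.95 ± 0.10, adjusted p = 1.02e-05), and 14.9% of its exon bases overlap another gene. PNPT1, the exoribonuclease of the mitochondrial degradosome, fell by 0.98 on the log2 scale. In the stability and decay list 5 of 10 were lower and 0 higher, the other 2 being the poly(A) polymerase MTPAP (-0.57) and the deadenylase PDE12 (-0.36). Among the processing factors 8 of 14 were lower and 0 higher, led by ELAC2, which cuts the tRNA 3′ ends (-0.77), and by FASTKD3 (-0.75) and FASTKD1 (-0.59), RNA-binding proteins of the matrix.

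The replication and nucleotide supply list held 12 lower and 2 higher of 21. RRM2B, the ribonucleotide reductase subunit that supplies nucleotides outside S phase, had 23.5, 26.5 and 25.6 CPM in DMSO and 105.8, 114.9 and 124.4 CPM in TH588, a log2 fold change of 2.19 ± 0.09 (adjusted p = 1.4e-08) and the largest rise among these nuclear genes. LIG3, the mitochondrial DNA ligase, rose by 0.20 on the log2 scale, with 30.5% of its exon bases shared with another gene. DNA2 (-1.22), a nuclease and helicase, PRIMPOL (-0.81), a primase, and SUCLG1 (-0.80), a subunit of succinyl-CoA ligase, fell the most.

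The translation apparatus was lower too. Of the mitoribosomal proteins, 29 of 51 in the large subunit were lower and 4 higher, and 20 of 30 in the small subunit were lower and 0 higher, and the median log2 fold change was -0.42 in both. MRPL1 (-1.30), MRPL40 (-1.29) and MRPL48 (-1.26) fell the most in the large subunit and, among called genes whose groups did not overlap and whose log2 CPM averaged 2 or more, MRPS34 (-0.88), MRPS23 (-0.73) and MRPS35 (-0.66) did in the small one, while MRPL10 (0.41), MRPL43 (0.35, with 36.9% of its exon bases shared), MRPL28 (0.35) and MRPL30 (1.28, from 0.347 to 0.836 CPM) rose. The rRNAs that these proteins bind were not called, as given above. Of the tRNA synthetases 12 of 22 were lower and 1 higher (PARS2, 0.64), led by GARS1 (-1.08), CARS2 (-0.87) and KARS1 (-0.87). GARS1 and KARS1 also charge cytosolic tRNAs. Of the enzymes that modify mitochondrial tRNAs and rRNAs 14 of 30 were lower and 1 higher (RPUSD3, 0.35), led by GTPBP3 (-0.88), MRM2 (-0.83) and PUS1 (-0.81).

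The nuclear subunits of the respiratory chain were counted by complex. In complex I, 14 of 36 were lower and 2 higher (median -0.21), with NDUFB9 (-0.85), NDUFC2 (-0.76) and NDUFB3 (-0.70) the lowest and NDUFA2 (0.47) and NDUFB5 (0.23) higher. In complex III, 3 of 9 were lower (CYC1, UQCRFS1 and UQCRC2, at -0.44, -0.43 and -0.23). In complex IV, 1 of 12 was lower (NDUFA4, -0.44) and 1 higher (COX8A, 0.39, with 34.5% of its exon bases shared). In the ATP synthase 9 of 18 were lower, among them ATP5MC1 (-0.74), ATP5PB (-0.44) and ATP5F1B (-0.42). Calls among the mitochondrial mRNAs were 4 of 7 for complex I and 0 for complexes III, IV and V, and the differences between complexes were not tested. Complex II, which has no mitochondrially encoded subunit, had 2 of 4 lower (SDHD and SDHB, both -0.55) and 1 higher (SDHC, 0.30). Of these, MTPAP, PDE12, MTERF1, MTERF4, MRPL12, MRPL30, PARS2, RPUSD3, NDUFA4 and SDHC were named after their values were seen, to complete a count. One gene of the ATP synthase list rose far more than the rest: ATP5IF1, the inhibitor that stops the enzyme from running backwards, had 70.4, 59.3 and 60.4 CPM in DMSO and 162.7, 155.5 and 180.7 CPM in TH588, a log2 fold change of 1.39 ± 0.09 (adjusted p = 3.25e-07).

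**Figure D5:**
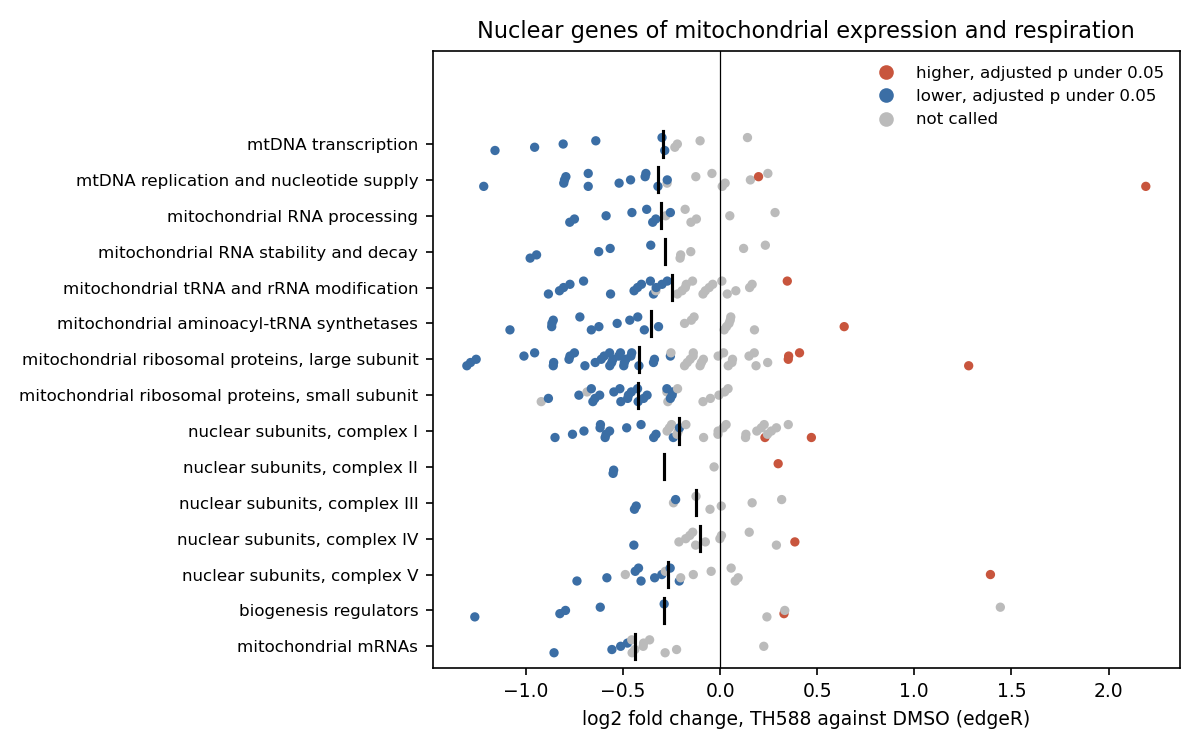
Log2 fold change (x axis, TH588 over DMSO, edgeR) of nuclear genes in 14 lists of mitochondrial expression and respiration and, in the last line, of the 13 mitochondrial mRNAs, with 1 point per gene coloured by call and a bar at each list's median. Medians run from -0.42 for the mitoribosomal proteins to -0.10 for complex IV, and the mitochondrial mRNAs lie at -0.44.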

How the data were processed

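RNA from A2780 cells was sequenced from poly(A)-selecting, unstranded TruSeq RNA v2 libraries (3 DMSO, 3 TH588). The authors aligned reads with TopHat to GRCh38 and counted them per gene with featureCounts 1.4.6. The deposited values are raw counts, from which everything here was computed. Read length, strand setting and treatment of reads matching several places are not given in the sources used here. All 37 mitochondrial genes had the coordinates of GENCODE v44.

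Counts were tested with edgeR 4.0.16 in R 4.3.3 (TMM, default filter on low counts, quasi-likelihood test, Benjamini-Hochberg over 15844 genes, adjusted p under 0.05), fitted on the whole table after a check on simulated data. Each SE was obtained from the fold change (log2) and the F statistic, as their ratio after taking the root of F. p-values measure the spread between these libraries. Replicates differed beyond sampling noise (chi-square per degree of freedom of 23.5 to 165.3 over all genes and 27.5 to 1144.7 over the mitochondrial genes). Floors of 3 counts cover counting error only. Nuclear copies were found as exact matches of 50 and 100 bases on GRCh38, and the chromosome 1 block was aligned with Biopython 1.88. Ratios and shares were compared by exact two-sided permutation.

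The members and lists were chosen with earlier results of these data known. Named were all members, POLRMT, TFAM, TFB2M, TEFM, LRPPRC and SLIRP, nuclear mitochondrial pseudogenes with a mean of at least 1000 counts (0 reached it), and in each nuclear list up to 3 rises and 3 falls with the largest change among called genes whose groups did not overlap and whose log2 CPM averaged 2 or more. Alternatives were DESeq2 size factors, library size only, scaling without mitochondrial genes or SNORD3A, DESeq2 1.42.0, limma-voom (limma 3.58.1), no filter on low counts, a minimum of 10 counts in each library, a replicate block, an adjusted p under 0.01 and each library left out.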

Additional observations from a re-analysis of the deposited data

How the results depend on the processing

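Of the mitochondrial mRNAs, 4 were called lower in the main analysis, 2 with library size only, 2 at an adjusted p under 0.01, 7 with limma-voom, and 2 to 7 with 1 library left out (7 without TH588 A, and 2 without DMSO A, DMSO B, TH588 B or TH588 C). MT-ND5 and MT-ND6 were among them each time. Of the rRNAs 0 were called, but 1, MT-RNR2, was higher with no filter on low counts, and 0 to 1 with a library left out (1 without TH588 B). Directions turned for MT-RNR1 (0.073 with library size only, -0.12 to 0.11 with a library left out), for MT-TP (0.002 with library size only, -0.40 to 0.16) and for POLRMT (0.004 with library size only, -0.251 to 0.041), none of which was called. The cause was not tested. Library size only moved the median of all genes from 0.02 to 0.13 (log2) and that of the mRNAs from -0.44 to -0.33. The replicate letters did not pair the libraries (correlations of deviations -0.20, -0.27 and 0.00), and with the letter as a replicate block 3 mRNAs were called, and 7195 genes in place of 7852. Over the nuclear lists 113 to 165 genes were called in place of 152, and GABPA, LIG3, MRPL28, MRPL43, NDUFA2, NDUFB5 and UQCRC2 each lost their call in at least 1 alternative. The mRNAs rest on 2582 to 9565 counts a library and the tRNAs on 15 to 49, which limits what could be detected among the tRNAs.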

Other observations

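The nuclear regulators of mitochondrial biogenesis were counted apart from the machinery they control. Of 10 listed, 9 passed the filter, 5 were lower and 1 was higher, where 25.3% and 24.2% of all genes tested were. PPARGC1B, a coactivator of respiratory genes, had 15.4 ± 1.03 CPM in DMSO and 6.33 ± 1.38 CPM in TH588 (SD, n = 3), a log2 fold change of -1.26 with an edgeR adjusted p of 2.19e-05. The related coactivator PPRC1 fell from 134.3 ± 5.46 to 75.6 ± 12.6 CPM (-0.83), and the third member of that family, PPARGC1A, had 0 counts in all 6 libraries. The subunits of one transcription factor went apart: GABPB1 fell (-0.80) and GABPA rose (0.33, adjusted p = 0.0141). NRF1, a transcription factor for many of the nuclear genes above, and YY1 also fell (-0.62 and -0.29). PPARGC1A, NRF1 and YY1 were named after their values were seen.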
